A study of Mus musculus with 4 samples.

Results

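The C-type lectin genes that carry a Clec symbol were followed in MC38 tumours, which mice developed after injection of this line of mouse colon adenocarcinoma cells. The members were chosen by name: every gene whose symbol is Clec followed by a digit, without Clec3b, Clec9a and Clec10a, which left 30 of 54115 annotated genes. Both groups received 10 daily intraperitoneal injections, of saline in the controls and of vanoxerine at 25 mg/kg in the treated mice, and each group had 2 RNA-seq libraries of snap-frozen tumour. Vanoxerine blocks the dopamine transporter. The labels name neither the host's strain, age and sex nor the animal behind each library, so the p-values cover the variation among libraries, part of which may be technical. Depth ran from 67289273 to 75748162 estimated reads per library. Of the epithelial markers of the labelled tumour, Epcam was at a mean of 2.02 CPM (read counts scaled to library size with edgeR's TMM factors) in saline and 4.11 in vanoxerine, Krt8 at 1.27 and 1.68, Krt18 at 1.27 and 2.02, and Cdh1 at 12.4 and 26.5. Epcam and Cdh1 were called higher (edgeR), and Krt8 and Krt18 were not called. The 4 together were 2.02 times higher in vanoxerine, a sum that was mostly Cdh1.

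C-type lectin receptors are surface proteins with a fold that in many members binds sugars in the presence of calcium. On macrophages, monocytes, neutrophils and dendritic cells they read fungal and bacterial glycans and the debris of dying cells. Activating receptors pass the signal to the kinase Syk and the adaptor Card9, either through a partner chain such as Fcer1g or through a single tyrosine motif of their own (a hemITAM), while inhibitory receptors carry a tyrosine motif (an ITIM) that recruits phosphatases. Clec2 proteins do not signal in this way and are ligands of NKR-P1 receptors on natural killer and T cells. In tumours the myeloid members are mostly transcripts of infiltrating cells.

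Chromosome 6 held 24 of the 30 members, and all of these but Clec2l, Clec5a and Clec4f lie in a pair of gene clusters. The Clec4 cluster ran from Clec4a1 (chr6:122921848-122934619, plus strand) through Clec4a3, Clec4a4, Clec4b1, Clec4a2, Clec4b2, Clec4n and Clec4d to Clec4e (chr6:123281789-123289870, minus strand), in GRCm38 coordinates of GENCODE release M21. Farther along lay Clec2 genes, then Clec12a (chr6:129342691-129365303, plus strand), Clec12b, Clec1b, Clec1a and Clec7a (chr6:129461591-129472779, minus strand).

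The coding bases of the signalling tyrosine are shown because they set the inhibitory members apart from the activating ones that sit beside them. Each stretch is 18 bases of GENCODE M21 coding sequence read 5′ to 3′ on the coding strand, and capitals mark the tyrosine codon. The inhibitory motif began at residue 5 in Clec12a (chr6:129350433-129350450), Clec4a2 (chr6:123123600-123123617), Clec4a4 (chr6:122990379-122990396) and Clec12b (chr6:129385461-129385478). The same pattern was in the first 45 residues of 4.22% of 21835 coding genes, so the letters alone do not mark an inhibitory receptor.
Clec12a: attgttTATgcaaatctc
Clec4a2: atcactTATgcagaagtg
Clec4a4: atcactTATgcagaagtg
Clec12b: gtgaccTATgcgacactg

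Clec4a2 and Clec4a4 shared all 18 bases of this stretch, and the reads of both genes were partly divided by estimate. The hemITAM pattern was found in Clec7a (chr6:129472632-129472649, residue 13) and Clec1b (chr6:129397627-129397644, residue 5), and in 0.137% of coding genes.
Clec7a: gatggaTATactcaatta
Clec1b: gatgggTATatcacttta

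The sugar-binding loop is shown next because it divides the Clec4 cluster in another way. A Glu-Pro-Asn triplet at this position is the known signature of mannose-type binding. It was present in Clec4n (chr6:123246448-123246474) and Clec4e (chr6:123283663-123283689), whereas Clec4a2 (chr6:123142370-123142396), Clec4b1 (chr6:123071400-123071426), Clec4a1 (chr6:122933785-122933811) and Clec4a3 (chr6:122969375-122969401) had Glu-Pro-Ser. Clec4a4, Clec4b2 and Clec4g also had Glu-Pro-Asn. In Clec4a1 and Clec4a3 the Trp-Asn-Asp triplet that follows in the other genes was not found. Glu-Pro-Asn with that second triplet occurred in 0.101% of coding genes. Capitals mark the codons of the first triplet.
Clec4n: cacccccatGAACCCAATcttccagaa
Clec4e: gatgctgggGAGCCCAACaatatagtt
Clec4a2: cacaatggtGAGCCCAGCagtggcaat
Clec4b1: cacaatggtGAGCCCAGCagtgacaat
Clec4a1: cactcagatGAACCCAGTggcaacact
Clec4a3: cacaaaggtGAGCCTAGCagtgacaat

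RefSeq start-site windows (GRCm38.p6, 250 bases before to 50 after the start) were at hand for 24 members, as 27 windows. The core letters of the binding motif of PU.1, a transcription factor of myeloid cells, GAGGAA on either strand, were in 16 of the 27 windows (59.3%), and in 28.3% of 32851 windows of the same length across the genome. The AP-1 letters TGANTCA were in 6 (22.2%, genome 7.81%) and the C/EBP letters TTGCNNAA in 6 (22.2%, genome 10.8%), both strands searched. Windows of Clec2i, Clec4a3 and Clec7a overlapped others of the same gene, so the same letters could count again. By gene, 15 of the 24 members had GAGGAA, 6 the AP-1 letters and 5 the C/EBP letters. A window is printed for the pair of genes with the largest fold difference among the members called, Clec4b1 (chr6:123049712-123050011, plus strand) and Clec12a (chr6:129349994-129350293, plus strand), and for the most abundant member, Clec4d (chr6:123261857-123262156, plus strand). Capitals mark GAGGAA or its reverse complement, which occurred 2, 2 and 3 times.
Clec4b1: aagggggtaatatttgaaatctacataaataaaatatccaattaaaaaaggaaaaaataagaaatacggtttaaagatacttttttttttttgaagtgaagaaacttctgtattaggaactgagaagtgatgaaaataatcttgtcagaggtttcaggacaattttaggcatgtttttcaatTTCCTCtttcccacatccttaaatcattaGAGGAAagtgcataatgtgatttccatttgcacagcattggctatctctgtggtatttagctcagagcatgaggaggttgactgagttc
Clec12a: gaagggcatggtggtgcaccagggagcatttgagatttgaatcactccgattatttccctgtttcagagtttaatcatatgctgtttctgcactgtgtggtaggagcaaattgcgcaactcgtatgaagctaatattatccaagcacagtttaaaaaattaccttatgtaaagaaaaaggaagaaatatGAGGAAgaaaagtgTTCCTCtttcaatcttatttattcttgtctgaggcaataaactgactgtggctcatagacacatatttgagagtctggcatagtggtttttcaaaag
Clec4d: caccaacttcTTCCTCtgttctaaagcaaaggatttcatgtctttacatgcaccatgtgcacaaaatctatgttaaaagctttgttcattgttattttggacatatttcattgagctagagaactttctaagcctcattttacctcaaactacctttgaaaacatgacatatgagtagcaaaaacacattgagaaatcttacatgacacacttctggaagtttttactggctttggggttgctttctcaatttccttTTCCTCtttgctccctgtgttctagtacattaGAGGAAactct

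The Clec4a2 window held no GAGGAA, although Clec4a2 was among the called members with the largest differences. A match is a run of letters and was not tested as a binding site.

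Of the 30 members, 23 passed the low-count filter and were tested with edgeR's quasi-likelihood test across 18758 genes. Of these 23, 11 were called higher in vanoxerine and 2 lower at a Benjamini-Hochberg adjusted p under 0.05. Over all genes tested 21.0% were called higher (3933) and 15.9% lower (2983). The libraries of both groups did not overlap for 19 of the 23 members, beside 70.7% of all genes. The median log2 fold change was 0.44 over the 23 and -0.0096 over all genes. The split over all genes depended on scaling, with 2895 higher and 4525 lower under the upper quartile and 4094 higher and 870 lower on log2(TPM + 1). The 2 members called lower were 0 in the edgeR fit without vanoxerine library 1 (2 at an unadjusted p under 0.05), 0 without vanoxerine library 2 (3 unadjusted) and 5 without saline library 2. DESeq2 called 2 members lower.

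Among the members called, the largest differences were in Clec4b1, Clec12a, Clec4a2 and Clec4a1. The abundant activating receptors Clec4d, Clec4e, Clec4n and Clec7a were 1.26 to 1.79 times higher. Clec2f and the secreted factor Clec11a were lower. Macrophage markers were higher in the same libraries: the summed level of Adgre1, Csf1r, Cd68, Mertk, Fcgr1 and C1qa was 478 and 511.5 CPM in saline and 2004 and 2007 CPM in vanoxerine, 4.05 times higher, and 6 of the 6 were called higher. In whole tumours more cells of a type and more transcript per cell cannot be told apart.

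**Figure D1:**
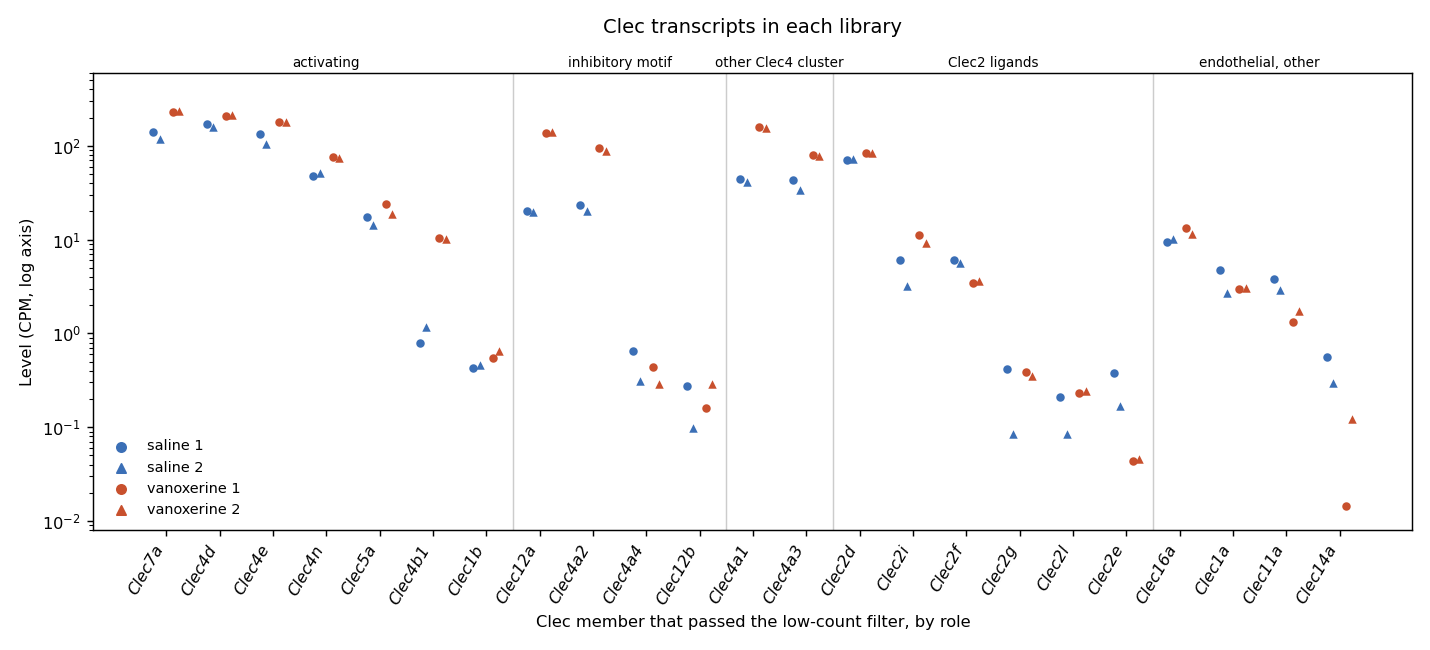
Level of each tested Clec member in CPM (log axis) by role; circles are library 1 and triangles library 2, blue for saline and red for vanoxerine. Clec12a moved from 20.0 and 19.9 to 138 and 140.3 CPM, while Clec4d, Clec4e and Clec7a stayed above 100 CPM in each of the 4 libraries.

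Among receptors with an inhibitory motif, Clec12a (MICL, a receptor for uric acid crystals on myeloid cells) stood at 20.0 and 19.9 CPM in the saline libraries and at 138 and 140.3 CPM in the vanoxerine libraries. Every vanoxerine value lay far above both saline values, and within a group the libraries were almost equal. The difference was 6.97-fold (log2 fold change 2.80 ± 0.051 SE, edgeR adjusted p = 5.46e-06, n = 2 and 2).

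Clec4a2 (DCIR, an inhibitory receptor of dendritic cells and macrophages) was at 23.5 and 20.3 CPM in saline and 93.8 and 88.9 CPM in vanoxerine. The groups were well apart, with a 4.17-fold difference (2.06 ± 0.083 SE, edgeR adjusted p = 3.67e-05). On the TPM scale, which is corrected for transcript length as well as library size, its mean went from 24.2 to 151.5, a 6.25-fold ratio. That larger ratio came with a short transcript of 343 bases, Clec4a2-205, which took 27.4% and 24.6% of the gene's TPM in vanoxerine and was listed at 0 in saline.

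The remaining genes with this motif were scarce. Clec4a4 (DCIR2, a receptor of a dendritic cell subset) had 0.654 and 0.309 CPM in saline and 0.433 and 0.288 in vanoxerine, and Clec12b 0.275 and 0.0983 against 0.159 and 0.288. For both the groups overlapped, and the edgeR adjusted p was 0.668 and 0.855. The sign of the log2 fold change of Clec4a4 (-0.42) turned to 0.22 without saline library 1, and that of Clec12b (0.25) to -0.28 without saline library 2 and -0.22 without vanoxerine library 2. As summed TPM these 4 genes took 6.45% and 6.05% of the whole Clec pool in saline and 20.7% and 20.0% in vanoxerine. The vanoxerine shares include 43.2 and 35.7 TPM of the short Clec4a2-205, which rest on 300 and 238 estimated reads.

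Clec4b1 (DCAR, which pairs with the Fcer1g chain) had the largest fold difference of the members called. It was low in saline, at 0.798 and 1.17 CPM, and reached 10.4 and 10.1 CPM in vanoxerine. The difference was 10.4-fold (3.38 ± 0.23 SE, edgeR adjusted p = 0.000186). Its read estimate was not a whole number, so some of its reads were shared by estimate with another gene. Clec4b2, a close relative, had 21 reads in saline library 1, none in saline library 2 or vanoxerine library 1 and 1 in vanoxerine library 2, and was not tested.

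Clec7a (dectin-1, the receptor for fungal beta-glucan) was at 141 and 119 CPM in saline and 231 and 234 CPM in vanoxerine. The saline libraries differed more from each other than the vanoxerine libraries did, but the groups did not overlap (0.84 ± 0.084 SE, edgeR adjusted p = 0.000837). GENCODE M21 lists Clec7a as a polymorphic pseudogene. Transcripts that code for 244 residues made up 87.2% and 75.9% of its TPM in saline and 80.1% and 76.2% in vanoxerine, and the transcript for a shorter protein of 199 residues most of the rest. These shares overlapped between the groups.

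Clec4n (dectin-2, a receptor for mannans) rose from 47.8 and 51.6 CPM to 76.4 and 74.9 CPM (0.61 ± 0.058 SE, edgeR adjusted p = 0.0007). Clec4e (Mincle, a receptor for mycobacterial glycolipid and for the dead-cell protein Sap130) was at 132.5 and 105 CPM in saline and 178.5 and 178 CPM in vanoxerine (0.58 ± 0.10 SE, edgeR adjusted p = 0.00775). In both genes each vanoxerine library lay above both saline libraries, by a narrower margin than in Clec12a. The Clec4e transcript with the most reads in each library was Clec4e-203, annotated as retaining an intron. The coding Clec4e-201 had 13.7 and 11.2 TPM in saline and 21.0 and 20.0 TPM in vanoxerine. The shorter coding Clec4e-207 overlapped between the groups, at 16.8 and 24.5 against 18.5 and 20.3 TPM. Clec4d (MCL, the partner of Mincle) had 173 and 159.6 CPM against 208 and 211 CPM (0.33 ± 0.054 SE, edgeR adjusted p = 0.00508). Without vanoxerine library 2 the Clec4d difference kept its size, at 0.34, and its edgeR adjusted p was 0.0592.

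Clec5a (MDL-1, which signals through Tyrobp) did not pass the threshold, with 17.3 and 14.2 CPM in saline and 23.7 and 18.9 CPM in vanoxerine (0.44 ± 0.15 SE, edgeR adjusted p = 0.0659). The groups did not overlap, and the libraries of each group lay apart. Clec5a was called higher with DESeq2 (adjusted p = 0.0288), without the filter (edgeR adjusted p = 0.0261) and with a replicate block (edgeR adjusted p = 0.0145). It was not called with upper quartile scaling (edgeR adjusted p = 0.147), with a transcript length offset (0.182) or on log2(TPM + 1) (limma adjusted p = 0.0876). Its log2 fold change was 0.59 without saline library 1 and 0.31 without saline library 2. Without vanoxerine library 1 it was 0.28, and without vanoxerine library 2 it was 0.60. Clec1b (CLEC-2, the podoplanin receptor of platelets) was scarce, at 0.432 and 0.463 CPM in saline and 0.549 and 0.653 CPM in vanoxerine (edgeR adjusted p = 0.559). Clec1b overlaps Clec9a on the same strand, and its reads were partly divided by estimate.

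In all, 5 of the 7 activating members were called higher. Their summed TPM of 398 and 394 in the saline libraries compared with 672.5 and 676 in vanoxerine, a 1.70-fold ratio. As a share of the Clec pool it went from 68.9% and 70.5% to 54.7% and 55.9%. Both the sum and the share include transcripts that are not annotated as coding. Of these, Clec4d-203, annotated for nonsense-mediated decay, had 120.5 and 114.8 TPM in saline and 173.2 and 170.9 TPM in vanoxerine.

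Another pair of the Clec4 cluster carries no inhibitory motif and has a less settled role. Clec4a1 (DCIR4) was at 44.2 and 41.5 CPM in saline and 159 and 153 CPM in vanoxerine. Those groups were far apart, with a 3.65-fold difference (1.87 ± 0.056 SE, edgeR adjusted p = 1.5e-05). Clec4a3 (DCIR3) had 43.3 and 33.8 CPM against 80.5 and 78.0 CPM. Its saline libraries were uneven and its vanoxerine libraries close, and the difference was 2.06-fold (1.04 ± 0.11 SE, edgeR adjusted p = 0.0012).

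**Figure D2:**
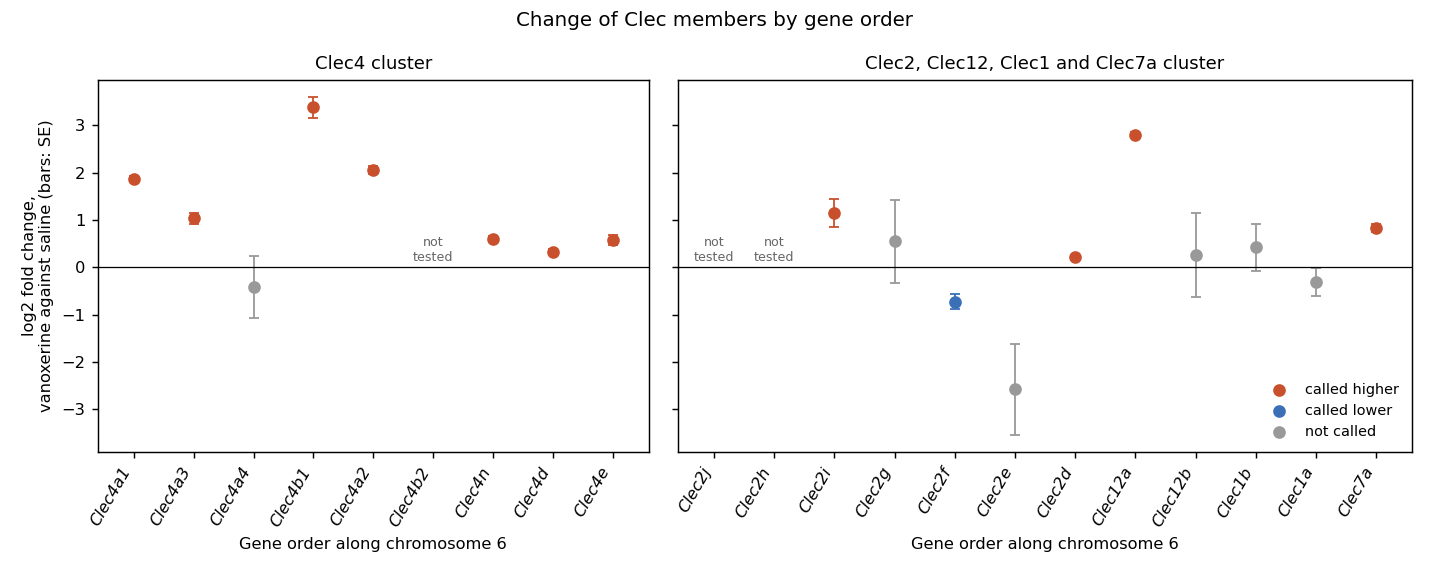
Log2 fold change of vanoxerine against saline (vertical axis, bars SE) for Clec members in gene order along chromosome 6; red is called higher, blue called lower, grey not called. Differences within the Clec4 cluster ranged from 0.33 in Clec4d to 3.38 in Clec4b1 among the members called, and Clec12a at 2.80 stood beside Clec12b, which was not called.

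Neighbouring genes thus differed in size of change, as the plot by gene order shows. The Clec4 cluster held 7 called members, Clec4a1, Clec4a3, Clec4b1, Clec4a2, Clec4n, Clec4d and Clec4e, and Clec4a4, which lies between Clec4a3 and Clec4b1, was not called. On the far side Clec12a and Clec7a were called higher, while Clec12b, Clec1b and Clec1a, which lie between them, were not.

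Set against the macrophage marker sum, the members fell into unlike groups. Clec4b1 went from 0.167 and 0.228 CPM per 100 CPM of macrophage markers in saline to 0.518 and 0.502 in vanoxerine. Clec12a went from 4.17 and 3.89 to 6.86 and 6.99 on the same scale. In these 2 genes the vanoxerine libraries lay above both saline libraries, by 2.59 and 1.72 times. The markers in the sum differed by unlike amounts, Fcgr1 by 2.05-fold, Cd68 by 2.49, Mertk by 4.26, Csf1r by 4.69, Adgre1 by 8.18 and C1qa by 8.93. The 10.4-fold difference of Clec4b1 was above each of these, while that of Clec12a, at 6.97-fold, was above the first 4 and below Adgre1 and C1qa, so its direction on this scale depends on the marker chosen.

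Clec4a2 overlapped between the groups on this scale, with 4.91 and 3.98 against 4.68 and 4.43. Clec4a1 was slightly lower, at 9.24 and 8.11 against 7.94 and 7.64. Clec4a3 (9.04 and 6.61 against 4.02 and 3.89) and Clec7a (29.5 and 23.2 against 11.6 and 11.7) were lower by 1.98 and 2.27 times. The ratio was lower still for Clec4n, by 2.66 times, Clec4e, by 2.72, and Clec4d, by 3.22. For Clec4a2 and Clec4a1 the direction also depends on the marker chosen. Their 4.17-fold and 3.65-fold differences were above those of Fcgr1 and Cd68 and below those of Mertk, Csf1r, Adgre1 and C1qa. Clec4a3, at 2.06-fold, was level with Fcgr1, at 2.05-fold. The ratios to the sum are descriptions with no test, and the part of macrophage number in each difference was not tested.

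**Figure D3:**
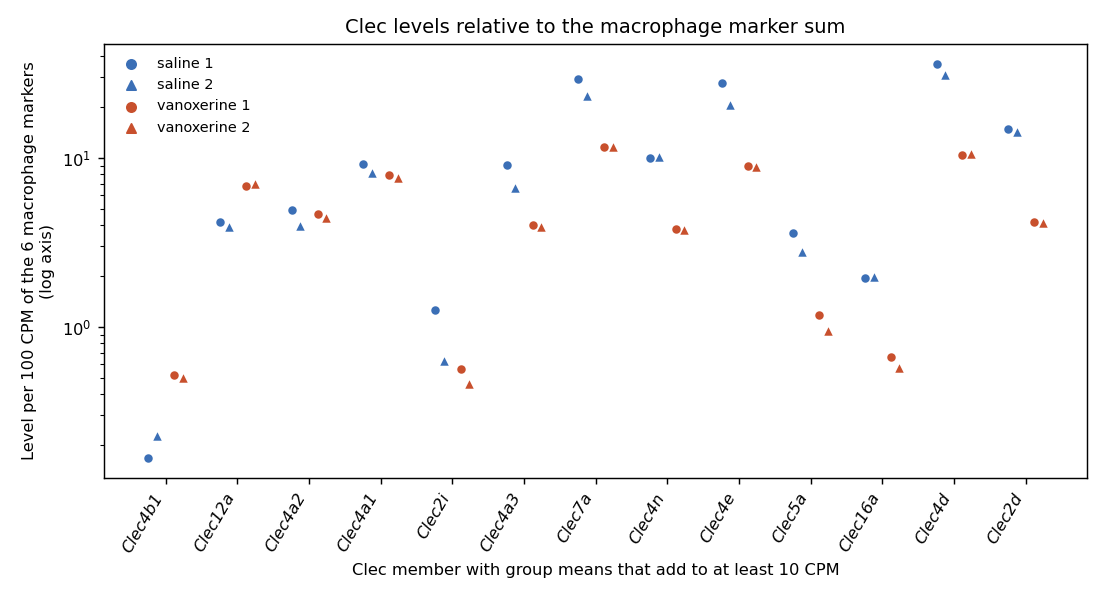
Level of abundant Clec members per 100 CPM of the summed macrophage markers (log axis), 1 point per library; circles are library 1, triangles library 2, blue saline, red vanoxerine. Clec4b1 and Clec12a were higher in vanoxerine relative to this sum, though Clec12a was not relative to Adgre1 or C1qa alone, Clec4a2 overlapped, and Clec4d, at 36.1 and 31.2 in saline, was at 10.4 and 10.5 in vanoxerine.

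Neutrophils also express Clec4d, Clec4e, Clec7a, Clec5a and Clec12a. Their summed markers (S100a8, S100a9, Cxcr2, Csf3r, Ly6g and Retnlg) were 879 and 919 CPM in saline and 509 and 501 CPM in vanoxerine, and 4 of the 6 were called lower. S100a8 and S100a9 made up most of the sum, at means of 236 and 497 CPM in saline. Cxcr2 (means of 34.2 CPM in saline and 30.7 in vanoxerine) and Csf3r (101 and 105 CPM) were not called. The markers of conventional dendritic cells summed to 26.8 and 23.3 CPM in saline and 32.3 and 34.4 CPM in vanoxerine, with Flt3 and Xcr1 called higher of 5. Most of this sum was Dpp4 (means of 15.45 CPM in saline and 17.6 in vanoxerine) and Zbtb46 (6.65 and 6.94 CPM). Neither was called. Flt3 was scarcer, at 1.21 and 3.92 CPM (3.24-fold), as was Xcr1, at 0.1875 and 2.67 CPM (14.1-fold). How much each of these cell types contributed to a Clec level was not tested.

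The Clec2 genes encode ligands rather than signalling receptors. Clec2d (Clr-b, the broadly expressed ligand of the inhibitory receptor Klrb1b) was at 71.0 and 72.4 CPM in saline and 84.0 and 82.9 CPM in vanoxerine. The groups did not overlap, but the difference was small (0.22 ± 0.047 SE, edgeR adjusted p = 0.0149). It was not called without vanoxerine library 1 (edgeR adjusted p = 0.187) or library 2 (0.174), with upper quartile scaling (0.237) or with a transcript length offset (0.0589).

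Clec2i (Clr-g) had 6.02 and 3.20 CPM in saline and 11.2 and 9.20 CPM in vanoxerine (1.15 ± 0.30 SE, edgeR adjusted p = 0.0297). Each vanoxerine library lay above both saline libraries, which themselves differed widely. Clec2i overlaps BC035044 on the opposite strand. Clec2f (Clr-h, annotated as a transcribed pseudogene) moved the other way, from 5.99 and 5.59 to 3.42 and 3.60 CPM (-0.72 ± 0.16 SE, edgeR adjusted p = 0.018). Neither call held without vanoxerine library 1 (edgeR adjusted p = 0.121 for Clec2i and 0.153 for Clec2f) or without library 2 (0.0578 and 0.122), and Clec2f was not called with the length offset (0.0541).

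The scarce Clec2 genes were not called. Clec2e (Clr-a) had 29 and 12 reads in saline and 3 and 3 in vanoxerine (edgeR adjusted p = 0.0868). Its log2 fold change of -2.58 was -1.88 without saline library 1 (edgeR adjusted p = 0.402). Clec2g had 0.419 and 0.0842 CPM in saline and 0.390 and 0.349 CPM in vanoxerine, which overlapped, and its log2 fold change of 0.55 turned to -0.17 without saline library 2. Clec2l, best known from brain, had 0.209 and 0.0842 CPM against 0.231 and 0.243 CPM (edgeR adjusted p = 0.588). The Clec2 genes together had 73.9 and 71.9 TPM in saline against 97.9 and 94.9 TPM in vanoxerine, a 1.32-fold ratio.

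Of the endothelial, secreted and other members, Clec11a (a secreted growth factor of bone and blood progenitors) was the only call. It stood at 3.82 and 2.90 CPM in saline and 1.33 and 1.73 CPM in vanoxerine, 2.20-fold lower (-1.14 ± 0.28 SE, edgeR adjusted p = 0.0229). The groups did not overlap. The call was lost without vanoxerine library 1 (-0.95, edgeR adjusted p = 0.165) or library 2 (-1.33, edgeR adjusted p = 0.0774), with the length offset (edgeR adjusted p = 0.058) and on log2(TPM + 1) (limma adjusted p = 0.0966).

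Clec14a, an endothelial receptor that binds the matrix protein Mmrn2, had 43 and 21 reads in saline and 1 and 8 in vanoxerine (-2.64 ± 1.07 SE, edgeR adjusted p = 0.107). Both saline libraries lay above both vanoxerine libraries, and without saline library 2 it was called lower (-3.02, edgeR adjusted p = 0.0225). The size rested on few reads and moved to -4.72 without vanoxerine library 2 (edgeR adjusted p = 0.154), -1.79 without vanoxerine library 1 (0.467) and -2.10 without saline library 1 (0.236). Endothelial markers (Cdh5, Kdr, Tie1, Plvap, Esam and Emcn) summed to 95.7 and 91.0 CPM in saline and 42.2 and 45.3 CPM in vanoxerine, with 5 of the 6 called lower. The part of vessel content in the Clec14a and Clec1a values was not tested.

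Clec1a, a melanin receptor of endothelial and myeloid cells, had 4.71 and 2.72 CPM in saline and 2.96 and 3.02 CPM in vanoxerine (-0.31 ± 0.30 SE, edgeR adjusted p = 0.465). Its groups overlapped, and saline decided the sign, which was positive (0.13) without saline library 1 and negative (-0.64, edgeR adjusted p = 0.0209) without saline library 2. Clec16a, an intracellular protein of endosomes and autophagy that is no sugar receptor, had 9.33 and 10.1 CPM against 13.3 and 11.5 CPM (0.35 ± 0.12 SE, edgeR adjusted p = 0.0697). It was called higher without saline library 2 (0.42, edgeR adjusted p = 0.0145), and its sign turned with the length offset (-0.018, edgeR adjusted p = 0.951). Clec16a overlaps Gm15558 on the opposite strand.

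The remaining members were scarce or undetected. Clec18a had no read in saline and 5 and 3 reads in vanoxerine, and Clec2h had 1 read in saline library 1 and none elsewhere. No read was assigned to Clec2j, Clec3a, Clec4f or Clec4g in any library. A count of 0 allows up to 3 reads, or 0.0393 to 0.0455 CPM by library, from counting error only. Clec4f and Clec4g mark liver macrophages and liver sinusoidal endothelium, and Clec3a marks cartilage.

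On the TPM scale, which allows levels of different genes to be compared, the 30 members summed to 578 and 558.5 in saline and 1229 and 1209 in vanoxerine, 2.15 times higher. Clec4d was the most abundant member in each library, at 204 and 195 TPM in saline and 305 and 305 in vanoxerine. Its share of the Clec pool went from 35.3% and 35.0% to 24.8% and 25.2%. Most of that TPM was assigned to Clec4d-203, a transcript annotated for nonsense-mediated decay, at 56.0% to 59.0%, and the full coding transcript took 17.9% to 21.7%.

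Clec12a went from 1.70% and 1.97% of the pool to 7.79% and 7.96%. Clec4a2 went from 4.53% and 3.98% to 12.8% and 12.0%, and Clec4a1 from 4.67% and 4.47% to 9.38% and 9.12%. In vanoxerine 27.4% and 24.6% of the Clec4a2 TPM was assigned to the short Clec4a2-205, which had 0 in saline, so the rise of its share is partly due to that transcript. Clec7a kept almost the same share, at 11.1% and 10.8% in saline and 10.9% and 11.6% in vanoxerine. Clec2d, whose level was slightly higher, went from 10.2% and 10.6% of the pool to 6.73% and 6.70%.

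**Figure D4:**
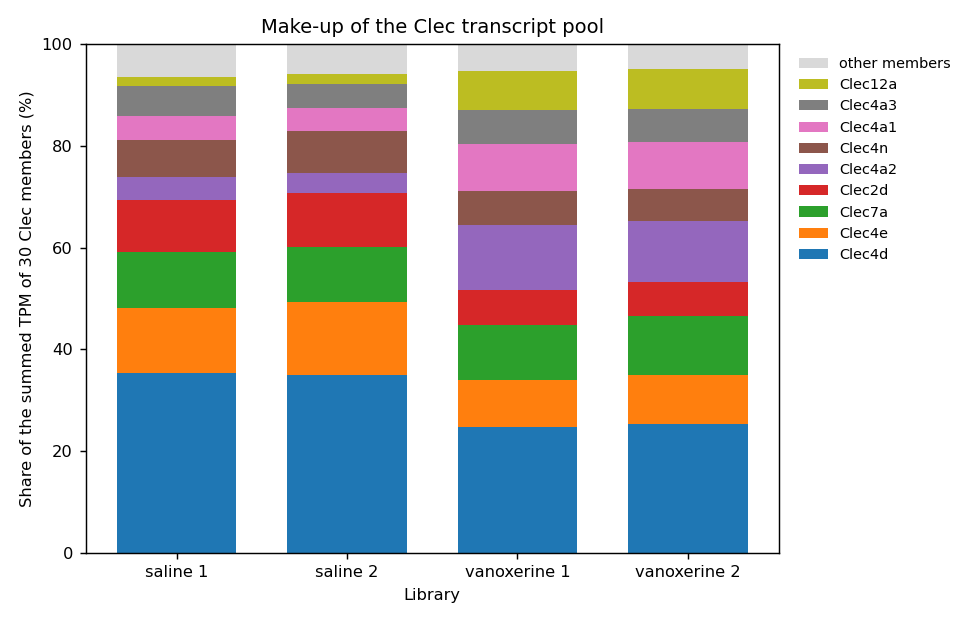
Share of the summed TPM of the 30 Clec members (vertical axis, percent) in each library, stacked by member; members of small share are joined as other members. Clec4d was the largest part of each bar, and Clec4a2, Clec4a1 and Clec12a took larger shares in the 2 vanoxerine libraries.

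Genes that work with these receptors were read from a list of 34, of which 23 were called higher and 4 lower, where 21.0% and 15.9% of all genes tested were. Among adaptors and kinases 5 of 7 were called higher. Src, a kinase of many cell types, was called lower (-0.21 ± 0.051 SE, edgeR adjusted p = 0.0236), but higher with the transcript length offset (0.53, edgeR adjusted p = 0.00994) and on log2(TPM + 1) (0.72, limma adjusted p = 0.00873), and not called without vanoxerine library 1 (edgeR adjusted p = 0.332) or library 2 (0.216). Fcer1g, the signalling chain of Clec4n, Clec4d, Clec4e and Clec4b1, was at a mean of 215 ± 3.95 CPM (SD) in saline and 490 ± 9.13 CPM in vanoxerine (1.18 ± 0.043 SE, edgeR adjusted p = 2.51e-05). Syk, the kinase shared by the activating receptors, had 63.1 ± 0.616 against 194 ± 4.05 CPM (1.62 ± 0.047 SE, edgeR adjusted p = 1.36e-05). Lyn, a kinase that phosphorylates both kinds of motif, had means of 109 and 283 CPM (1.38 ± 0.042 SE, edgeR adjusted p = 1.59e-05). Tyrobp, the chain used by Clec5a, had means of 184 and 384 CPM (1.06 ± 0.065 SE, edgeR adjusted p = 0.000136).

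Of the Card9 branch 7 of 8 were called higher, and Bcl10 missed the threshold (edgeR adjusted p = 0.0523) but was called higher without saline library 1 (0.000422) or library 2 (0.0187), without the filter (0.0343) and on log2(TPM + 1) (limma adjusted p = 0.0274). Card9 itself had means of 9.03 and 17.4 CPM (0.95 ± 0.15 SE, edgeR adjusted p = 0.00441), and was not called with the length offset (edgeR adjusted p = 0.0915) or on log2(TPM + 1) (limma adjusted p = 0.0619). Vav1, a Rac exchange factor upstream of Card9, had means of 66.0 and 130.4 CPM, Vav3 of 22.3 and 43.0 CPM, Prkcd, the kinase that phosphorylates Card9, of 118 and 174 CPM, and the protease Malt1 of 58.7 and 96.4 CPM. The phosphatases recruited by inhibitory receptors were each called higher. Inpp5d (SHIP-1) had means of 60.9 and 168.5 CPM (1.47 ± 0.050 SE, edgeR adjusted p = 2.18e-05), Ptpn6 (SHP-1) of 103 and 212 CPM (1.04 ± 0.053 SE, edgeR adjusted p = 7.39e-05), and Ptpn11 (SHP-2) differed by 0.21 ± 0.048 SE (edgeR adjusted p = 0.0179). The small Ptpn11 difference was not called without vanoxerine library 1 (edgeR adjusted p = 0.144) or library 2 (0.231), with upper quartile scaling (0.261) or with the length offset (0.0585). Many of these genes are expressed by leukocytes in general. Macrophage markers rose in the same libraries, and the part of cell content in these differences was not tested.

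Ligands and counter-receptors differed in direction, with 4 of 8 called higher and 1 lower. Klrb1b, the receptor of Clec2d, had means of 45.9 and 108 CPM (1.24 ± 0.055 SE, edgeR adjusted p = 4.95e-05). Pdpn, the ligand of Clec1b, had means of 20.5 and 42.5 CPM (1.06 ± 0.068 SE, edgeR adjusted p = 0.000167). Klrb1c had means of 20.3 and 34.9 CPM. Markers of natural killer and T cells (Cd3e, Cd3g, Ncr1, Klrb1c and Nkg7) summed to 361.9 and 371.9 CPM in saline and 388 and 364.4 CPM in vanoxerine. Of these Klrb1c was called higher and Cd3g lower. The part of these cells in the Klrb1b and Klrb1c values was not tested. Mmrn2, the partner of Clec14a, fell from 5.50 to 1.96 CPM (-1.49 ± 0.19 SE, edgeR adjusted p = 0.00196).

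Cytokines and the inflammasome gene downstream of Syk and Card9 were mixed, with 4 of 8 called higher and 2 lower. Nlrp3 had means of 56.5 and 132 CPM (1.23 ± 0.048 SE, edgeR adjusted p = 3.31e-05), and Tnf of 42.6 and 78.0 CPM. Il12b was scarce in saline, at 0.330 CPM, and had 2.96 CPM in vanoxerine (3.16 ± 0.35 SE, edgeR adjusted p = 0.00117). Cxcl2, a neutrophil chemokine, was lower, with means of 671 and 497 CPM (-0.43 ± 0.049 SE, edgeR adjusted p = 0.00128), but not called on log2(TPM + 1) (-0.18, limma adjusted p = 0.0658). Il23a was the other gene called lower, by 1.23 on the log2 scale, and it was named after its value was seen.

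**Figure D5:**
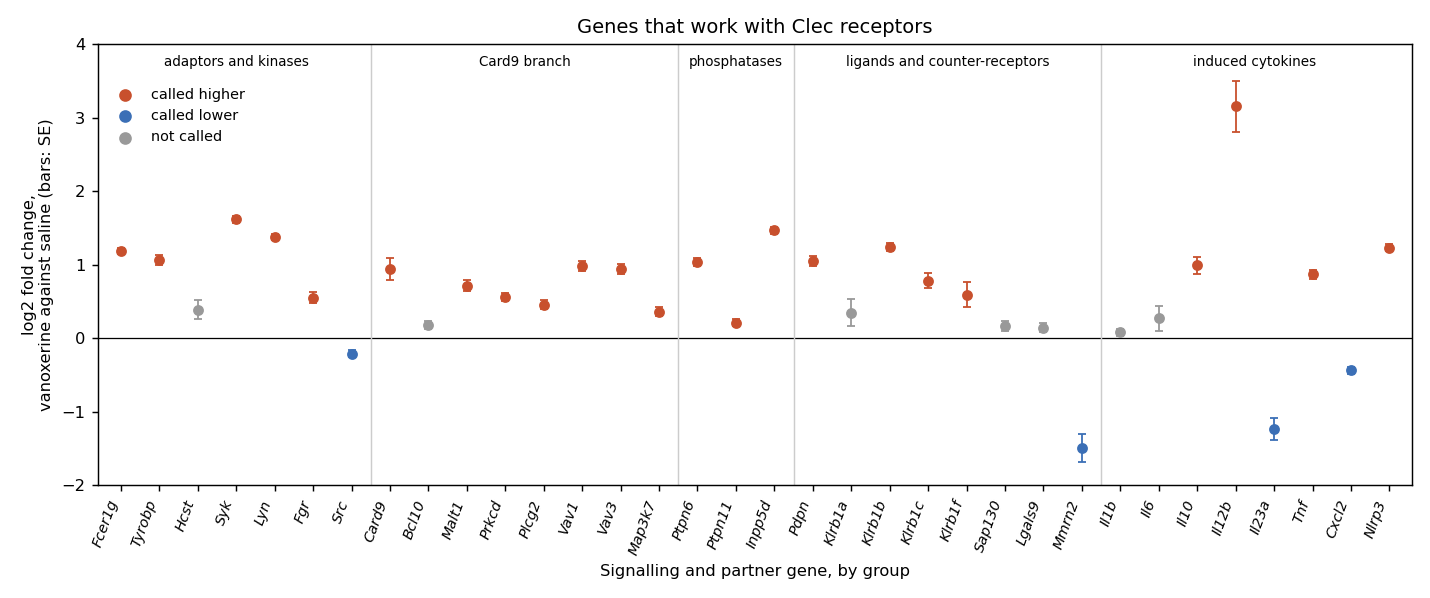
Log2 fold change of vanoxerine against saline (vertical axis, bars SE) for 34 genes that signal with, bind or act downstream of Clec proteins, in 5 groups; red is called higher, blue called lower, grey not called. Most adaptors, kinases, Card9-branch genes and phosphatases lay above 0, and Src, Mmrn2, Il23a and Cxcl2 were called lower, Src with a sign that turned with the transcript length offset and on log2(TPM + 1).

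In the authors' deposited table the members with large differences had similar values, with a log2 fold change of 2.96 for Clec12a, 3.31 for Clec4b1, 2.40 for Clec4a2 and 1.88 for Clec4a1. The authors' deposited table gave 0.90 for Clec7a, 0.37 for Clec4d and 0.33 for Clec4e. For Clec16a the authors' deposited table gave -0.0088 with an adjusted p of 0.977. The authors' deposited table listed Clec2f at -0.58 (adjusted p = 0.0294) and Clec11a at -0.87 (adjusted p = 0.0214). For Clec14a and Clec2e it gave -0.22 and -0.21 (standard errors 0.504 and 0.499), with no adjusted p in the authors' deposited table. Their raw p-values there (authors' DESeq2) were 0.0678 and 0.078, smaller than such sizes and errors would give. These sizes are thus not on the same scale as the -2.64 and -2.58 of the edgeR fit, and do not show that a difference was absent. The fit of the 4 libraries with a transcript length offset gave 2.96 for Clec12a, 2.41 for Clec4a2 and 0.37 for Clec4d, close to the authors' values. For Clec4e and Clec16a it gave 0.34 and -0.018, also close, beside 0.58 and 0.35 without the offset. For Clec11a and Clec2f it gave -1.14 and -0.71, farther from the authors' values. The authors' standard errors for these genes were 0.440 and 0.267, and their raw p-values (authors' DESeq2) 0.0064 and 0.0093. Such p-values are again smaller than the sizes and errors would give, so these gaps do not show a disagreement. The authors' deposited table also holds columns of libraries that match no sample here, so its labels do not tell which libraries lie behind its values.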

How the data were processed

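RNA-seq of 4 MC38 tumour libraries, 2 per group, was analysed. Per the submitters' processing notes, reads were handled with fastp, Salmon 1.3.0 and DESeq2 on build GRCm38. For the annotation release, read length and strand setting, nothing is given in the sources used here, so genes on opposite strands cannot be separated with certainty.

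The authors deposited, for each transcript and library, an estimated count (reads assigned by Salmon, not normalized), a TPM value and an effective length, which is a signal in bases, per the file headers. Their table of the comparison holds, per the file headers, a base mean (a signal averaged over libraries), a log2 fold change, its standard error (a score without a fixed range), and a p-value, raw and adjusted. Another 4 columns, of FPKM, bear names that match no sample and were left aside.

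Transcripts were joined to GENCODE M21 genes (139791 of 140992 matched, with 99.56% to 99.63% of reads), and estimated counts were summed per gene and rounded. Clec2m is listed under another symbol there and was not counted as a member. The fit used edgeR 4.0.16 (R 4.3.3) with TMM factors, a minimum count of 10, a minimum total of 15, no block, and adjustment over all genes tested. The fit was tested on simulated data with known changes. SE comes from the F statistic. CPM uses TMM-scaled library sizes, and mean ± SD covers the 2 libraries of a group. Alternatives were median of ratios and upper quartile scaling, dropping the low-count filter, requiring a mean CPM of 1 or more, DESeq2 1.42.0, log2(TPM + 1) with limma 3.58.1, a transcript length offset, a replicate block, an adjusted p under 0.1 and omission of each library in turn, when the group's lone library is taken to vary as the other group does.

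Every member is accounted for, and up to 4 genes of each partner list with the smallest p are named. Of the partner lists 1 gene is not reported here, and the counts leave it out. Further names were added after their values were seen: Src, Bcl10, Card9 and Il23a. The members and all lists were chosen with earlier results of these data known. Salmon divides reads that match several transcripts by estimate, so values of similar genes are less certain than depth implies. Promoter windows are from RefSeq (GRCm38.p6), and coding bases from GENCODE M21 transcripts.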

Additional observations from a re-analysis of the deposited data

How the results depend on the processing

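Of the 13 members called, 8 (Clec12a, Clec4a1, Clec4a2, Clec4a3, Clec4b1, Clec4e, Clec4n and Clec7a) kept their direction and their call in each of the 13 alternatives. The count of members called higher was 8 to 13 over the alternatives, and 8 to 13 with a library left out. The count called lower was 1 on log2(TPM + 1), 0 with the transcript length offset (edgeR, 3 at an unadjusted p under 0.05) and 0 to 5 with a library left out. The median log2 fold change of the members tested was 0.31 with upper quartile scaling and 0.55 at a mean CPM of at least 1, which tested 16 members, and 0.30 to 0.59 with a library left out. Of the partner genes, 2 were called lower on log2(TPM + 1), and 18 of the 23 named kept their direction and call throughout. Signs turned for Src with the length offset (0.53) and on log2(TPM + 1) (0.72), for Clec16a with the length offset (-0.018) and, with a library left out, for Clec1a (-0.64 to 0.13), Clec4a4 (-0.84 to 0.22), Clec12b (-0.28 to 1.17) and Clec2g (-0.17 to 2.11). The cause was not tested.

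The replicate block gave 12 Clec members higher and 2 lower, and 22 partner genes higher and 4 lower. The deviations of same-numbered libraries correlated at -0.039 over 9871 genes. With 2 libraries per group this cannot exclude a shared day or litter, and the labels name none. The median of all genes shifted by -0.13 under upper quartile scaling and by 0.22 on log2(TPM + 1). Over all genes, 3933 higher and 2983 lower became 2604 and 1705 with the length offset, 2188 and 1047 without vanoxerine library 1, and 2113 and 994 without vanoxerine library 2. Low read numbers limit Clec14a, Clec2e, Clec2g, Clec2l, Clec12b, Clec4a4 and Clec1b.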
